A study of Rattus norvegicus with 10 samples.

Results

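A set of 10 genes of the exchange between neurons and microglia were followed in rat hippocampal cultures after action potentials had been blocked. They are the signals Csf1, Il34, Cx3cl1 and Ccl2, the receptors Csf1r, Cx3cr1, P2ry12 and Trem2, the integrin chain Itgam and the cytoplasmic marker Aif1. They were chosen by name, all 10 were among the 14354 genes of the deposited table, and all 10 passed the filter that left 13088 genes for testing. RNA was sequenced from mixed neuron and glia cultures prepared from hippocampi of rat embryos (Sprague-Dawley strain, embryonic day 18), unmodified in genotype as far as the labels say. The TTX group of 5 libraries received 1 µM tetrodotoxin, a toxin that stops action potentials by blocking sodium channels, for 24 h from day 19 in vitro. The vehicle group of 5 libraries received the solvent for the same 24 h, and both were collected at 20 days in vitro. The study asked which factors secreted by astrocytes could take part in homeostatic synaptic plasticity, the adjustment of synapses to a lasting change in activity. The labels do not say whether libraries of a group came from separate cultures or animals, and all p-values therefore refer to the spread among these libraries, part or all of which may be technical.

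Microglia are the resident macrophages of the brain, and their survival depends on the receptor tyrosine kinase CSF1R. CSF1R has a pair of ligands, CSF1, made largely by glia, and IL-34, made largely by neurons. Neurons also display fractalkine (CX3CL1), a chemokine tethered to the membrane that is shed by proteases and acts on CX3CR1 of microglia, while nucleotides released by active or injured cells draw microglial processes through the receptor P2RY12. CCL2 is a chemokine of astrocytes, microglia and neurons that attracts monocytes, TREM2 is a lipid-sensing receptor that signals through TYROBP, ITGAM is the alpha chain of complement receptor 3, and AIF1 (IBA1) is the protein most used to stain microglia.

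The promoters of the myeloid receptors are shown because PU.1 (gene Spi1), a transcription factor of the myeloid lineage, was itself among the genes that rose with TTX. RefSeq promoter windows of assembly GRCr8, running from 250 bases before to 50 bases after the annotated start and written 5′ to 3′ on the gene's strand, were found for 5 of the 10 genes. Capitals mark the core of the PU.1 motif, GAGGAA, or its reverse complement TTCCTC. The windows are Csf1r, chr18:56834129-56834428 on the plus strand, Itgam, chr1:192089342-192089641 on the plus strand, Cx3cr1, chr8:128677017-128677316 on the minus strand, and Cx3cl1, chr19:10242771-10243070 on the minus strand, the last as the promoter of a signal that fell with TTX.
Csf1r: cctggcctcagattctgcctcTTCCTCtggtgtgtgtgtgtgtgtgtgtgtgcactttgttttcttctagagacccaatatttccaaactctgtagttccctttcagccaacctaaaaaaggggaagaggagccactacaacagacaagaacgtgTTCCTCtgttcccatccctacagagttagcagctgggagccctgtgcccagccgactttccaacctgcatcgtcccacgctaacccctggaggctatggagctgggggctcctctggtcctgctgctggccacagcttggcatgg
Itgam: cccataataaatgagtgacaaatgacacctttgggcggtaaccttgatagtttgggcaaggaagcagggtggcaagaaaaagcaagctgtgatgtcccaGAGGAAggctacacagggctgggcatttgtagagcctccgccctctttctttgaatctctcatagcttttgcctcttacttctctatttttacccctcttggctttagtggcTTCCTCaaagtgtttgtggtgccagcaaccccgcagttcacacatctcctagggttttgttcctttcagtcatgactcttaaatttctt
Cx3cr1: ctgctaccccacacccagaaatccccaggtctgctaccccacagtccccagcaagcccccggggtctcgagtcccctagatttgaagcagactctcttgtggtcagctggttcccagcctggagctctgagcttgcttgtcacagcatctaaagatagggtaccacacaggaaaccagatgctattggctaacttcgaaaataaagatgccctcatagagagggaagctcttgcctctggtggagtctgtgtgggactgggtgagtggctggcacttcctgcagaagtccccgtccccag
Cx3cl1: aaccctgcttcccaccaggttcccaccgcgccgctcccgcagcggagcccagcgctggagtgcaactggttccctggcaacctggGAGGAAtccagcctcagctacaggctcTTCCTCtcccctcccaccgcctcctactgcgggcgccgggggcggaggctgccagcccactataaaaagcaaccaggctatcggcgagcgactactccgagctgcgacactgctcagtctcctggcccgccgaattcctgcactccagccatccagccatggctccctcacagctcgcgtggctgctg
Csf1r held 2 matches, starting at -229 and -95 relative to the annotated start, and Itgam held 2, at -151 and -39. Cx3cl1, a signal made by neurons rather than myeloid cells, also held 2, at -165 and -138, whereas the Cx3cr1 window held none. Trem2, whose window is not printed, held 1 match at -29 and 1 AP-1 motif (TGANTCA) at -3, and none of the 5 windows held the cyclic AMP response element TGACGTCA. None of these matches overlapped another. On either strand the GAGGAA core was present in 27.5% of 27457 promoter windows of the same length, the AP-1 motif in 7.33% and the cyclic AMP response element in 1.91%. Among the 10121 windows of tested genes the shares were 26.6%, 5.19% and 3.10% in the same order. A match is a string of letters and not a measured site, no match tells nothing of the factor, and the start used in these cultures was not measured.

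The libraries held 58785925 to 84921962 counts with TTX and 52254261 to 77757538 with vehicle. Npas4, an activity-dependent transcription factor of neurons and here the check that activity was blocked, had 2 to 14 counts per TTX library, against 4644 to 7007 per vehicle library. Of the tested genes, 70.5% passed an adjusted p of 0.05 in the quasi-likelihood test of edgeR (Benjamini-Hochberg adjusted), the test used throughout for log2 fold changes. The calls divided into 35.4% higher and 35.0% lower with TTX, and in 57.3% of tested genes the TTX and vehicle libraries did not overlap. Against that background the 6 of 10 genes called here (4 higher, 2 lower) and the 5 of 10 without overlap were not more than the table as a whole gave. The median log2 fold change was 0.45 over the 10 genes and 0.0065 over all tested genes.

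All 4 signals changed, in opposite directions. The CSF1R ligands Csf1 and Il34 were 2.02-fold and 1.46-fold higher with TTX, and the chemokines Cx3cl1 and Ccl2 were 1.96-fold and 2.75-fold lower. Of the 6 receptors and markers, P2ry12 was 3.40-fold higher without overlap, Itgam was 1.57-fold higher with overlap, and Csf1r, Aif1, Cx3cr1 and Trem2 did not pass.

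**Figure D1:**
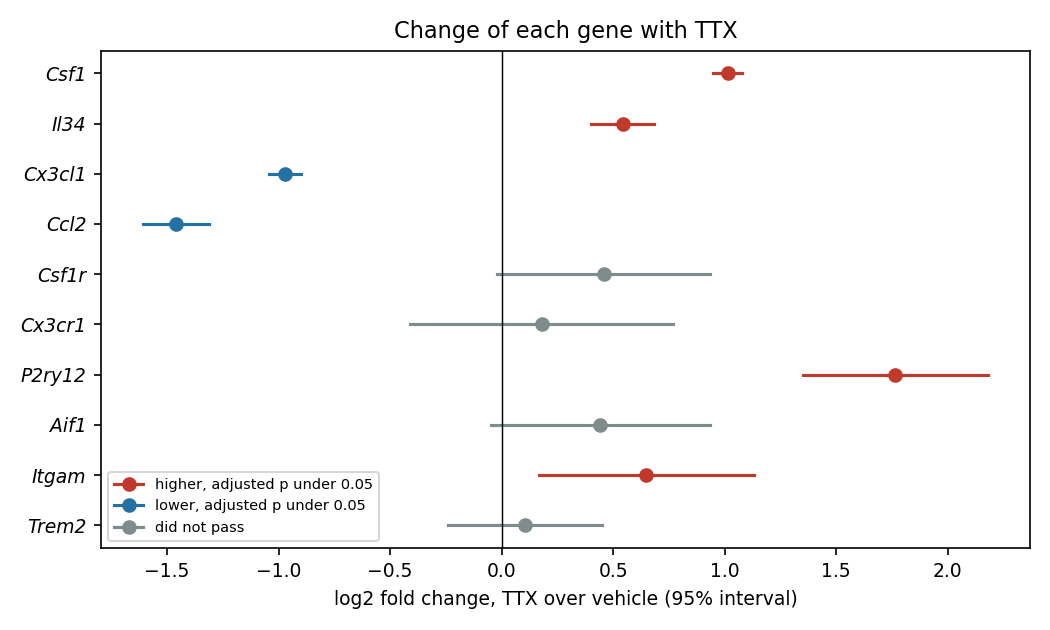
Log2 fold change of each of the 10 genes, TTX over vehicle (x axis), with its 95% interval from the edgeR quasi-likelihood fit, genes in rows by role. The 4 signals have short intervals away from 0, P2ry12 lies furthest to the right at 1.77, and the intervals of Csf1r, Cx3cr1, Aif1 and Trem2 cross 0.

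Csf1, the CSF1R ligand made largely by glia, stood at 83.9, 87.0, 87.4, 87.9 and 86.6 CPM (counts scaled to the library size, by TMM) in TTX replicates 1 to 5, against 41.2, 44.0, 43.0, 41.5 and 44.4 CPM in vehicle replicates 1 to 5. The lowest TTX library lay far above the highest vehicle library, and the libraries of each group lay close together. The log2 fold change was 1.01 ± 0.0301 (SE, 95% interval 0.95 to 1.08, adjusted p = 9.01e-13). A larger log2 fold change was found for 444 of the 4638 genes called higher. Csf1 is also the 1 gene of the 10 in the authors' deposited table of 54 raised secreted factors. The 3 genes whose centred log2 CPM followed that of Csf1 most closely over the 10 libraries, among 11834 genes, were Hexim1, an inhibitor of transcription elongation, Iqsec2, an exchange factor of excitatory synapses, and Cryl1, a metabolic enzyme, with root mean square differences of 0.0204, 0.0279 and 0.0306.

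Il34, the CSF1R ligand made largely by neurons, had 15.7, 15.2, 15.2, 15.5 and 18.7 CPM in TTX replicates 1 to 5, against 10.1, 11.5, 11.1, 11.6 and 10.7 CPM in vehicle replicates 1 to 5. The groups did not overlap, and TTX replicate 5 stood above the other TTX libraries. Its log2 fold change was 0.54 ± 0.0653 (SE, 95% interval 0.40 to 0.68, adjusted p = 3.45e-06), and it was 0.48 without TTX replicate 5. Csf1 rose by more than Il34, and the ratio of Csf1 to Il34 CPM within a library was 4.64 to 5.75 with TTX and 3.57 to 4.14 with vehicle. That difference of 0.47 on the log2 scale gave p = 0.00794 in a two-sided exact permutation test, the smallest that 5 libraries against 5 allow. Per transcript length, in the deposited FPKM, Csf1 exceeded Il34 2.095 ± 0.181 times with TTX and 1.51 ± 0.0866 times with vehicle (SD, n = 5 each).

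Cx3cl1 (fractalkine) had 308, 322, 299, 295 and 319 CPM in TTX replicates 1 to 5, against 586, 622, 587, 637 and 592 CPM in vehicle replicates 1 to 5. Every TTX library lay below every vehicle library by a wide margin. With TTX over vehicle the log2 fold change was -0.97 ± 0.0328 (SE, 95% interval -1.04 to -0.90, adjusted p = 3.45e-12). Set against 12 neuronal marker genes summed in the same library, Cx3cl1 amounted to 5.68 to 6.02% of their CPM with TTX and 11.5 to 12.7% with vehicle, a log2 difference of -1.07 (exact permutation test, two-sided, p = 0.00794, and 0.00794 after adjustment over 3 such ratios). The closest patterns were those of Gad2, which makes GABA, Grip1, a scaffold of AMPA receptors, and Cbarp, a regulator of calcium channels, with root mean square differences of 0.0432, 0.0478 and 0.0488. In bulk RNA, fewer cells of a type and less RNA per cell cannot be told apart.

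Ccl2 had 11.3, 9.84, 13.01, 11.9 and 10.2 CPM in TTX replicates 1 to 5, against 29.5, 30.7, 29.7, 32.4 and 32.7 CPM in vehicle replicates 1 to 5. No TTX library came near the vehicle libraries. On the log2 scale the change was -1.46 ± 0.0686 (SE, 95% interval -1.61 to -1.31, adjusted p = 1.24e-10). Its receptor Ccr2 was not found by that name among the genes of the deposited table and could not be analysed. The 12 astrocyte marker genes summed to 15848 to 17792 CPM with TTX and 10533 to 12308 CPM with vehicle. Of these genes 8 were called higher and 2 lower (83.3% called, against 70.5% over all tested genes). Gfap was among the higher, at 9702 ± 198 CPM with TTX, against 5364 ± 511 CPM with vehicle (SD, n = 5 each). Per astrocyte marker CPM, Csf1 amounted to 0.471 to 0.552% with TTX and 0.361 to 0.391% with vehicle (log2 difference 0.45), and Ccl2 to 0.0554 to 0.0821% with TTX and 0.253 to 0.292% with vehicle (log2 difference -2.03). Each ratio gave 0.00794 in the same exact permutation test and after adjustment over the 3 ratios. Relative to these markers the rise of Csf1 was smaller than its rise in CPM, and the fall of Ccl2 larger. The size depended on how the markers were combined, since Gfap was by far the largest part of the sum. With a mean of log2 values in place of the sum, the differences were 0.67 for Csf1 and -1.81 for Ccl2. Aqp4, also in the sum, varied widely with TTX, at 905 ± 811 CPM, against 1133 ± 68.5 CPM with vehicle. Which cells made Csf1 or Ccl2 was not measured.

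**Figure D2:**
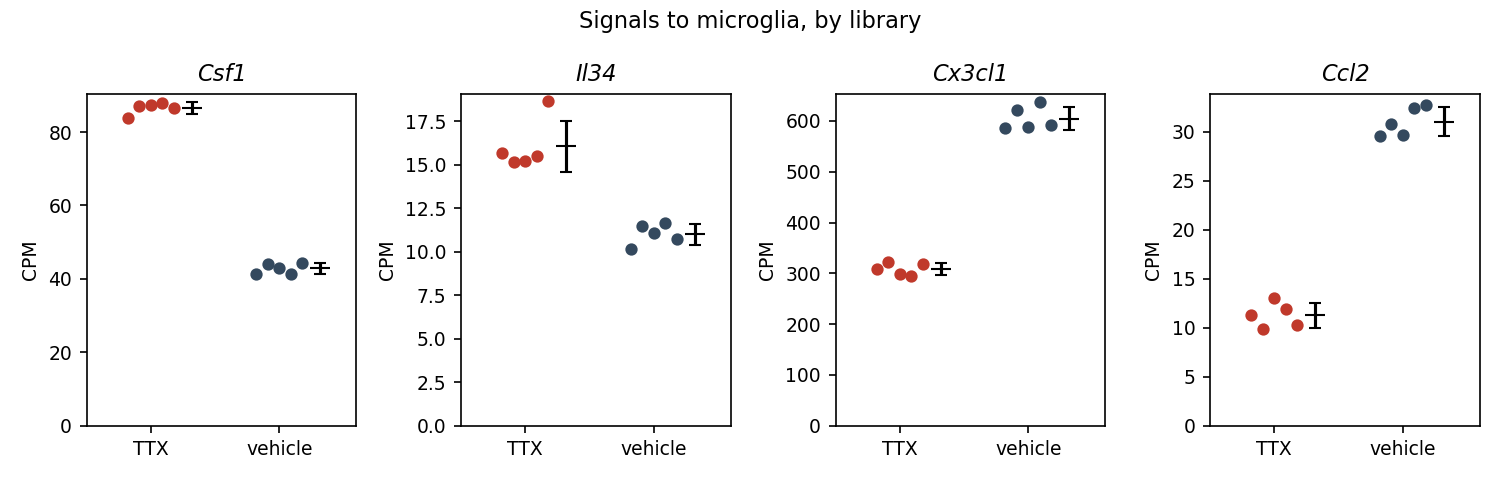
CPM of the 4 signals in each library (points), with the group mean and SD (bars), TTX left and vehicle right of each panel, y axes starting at 0. Csf1 and Il34 lie higher and Cx3cl1 and Ccl2 lower with TTX, and in none of the 4 panels do the groups overlap.

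Ordered by FPKM, the deposited measure per transcript length, Cx3cl1 led in both groups, at 99.0 ± 3.65 FPKM with TTX and 192 ± 7.38 FPKM with vehicle (SD, n = 5 each here and below). Csf1 came next with TTX, at 21.5 ± 0.442 FPKM, whereas with vehicle it stood in the third place, at 10.5 ± 0.331 FPKM, its libraries overlapping those of Aif1. Ccl2 held the third place with TTX, at 14.2 ± 1.65 FPKM, where the libraries of Ccl2 and Aif1, of Aif1 and Il34 and of Il34 and Csf1r overlapped. With vehicle Ccl2 was second, at 38.6 ± 1.65 FPKM, apart from its neighbours on both sides. P2ry12 was the ninth with TTX, at 1.44 ± 0.348 FPKM, above Cx3cr1 at 0.738 ± 0.335 FPKM but overlapping it. With vehicle P2ry12 was the lowest of the 10, at 0.412 ± 0.0436 FPKM, and its libraries lay apart from those of Cx3cr1 at 0.645 ± 0.167 FPKM. Per length, the ligand Cx3cl1 exceeded its receptor Cx3cr1 76.9 to 209-fold in TTX libraries and 212 to 415-fold in vehicle libraries.

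The receptors and markers differed from the signals in their spread between libraries of one group, and this has to be read before their fold changes. TTX replicate 5 was the highest TTX library for 5 of the 6 genes, all but P2ry12, and TTX replicate 1 the lowest for 5 of the 6, all but Trem2. Among vehicle libraries, replicate 1 was the highest for 4 of the 6 and replicate 5 the lowest for 4 of the 6. Csf1r, for instance, varied 2.998-fold among TTX libraries and 1.83-fold among vehicle libraries, whereas Csf1 varied 1.05-fold among TTX libraries and 1.08-fold among vehicle libraries. Other microglial genes showed the same libraries at the extremes. Of 26 microglial markers in the table, none of them one of the 10 genes, 20 were highest in TTX replicate 5 and 21 lowest in TTX replicate 1, while 14 were highest in vehicle replicate 1 and 20 lowest in vehicle replicate 5. Their summed level was 272 to 525 CPM with TTX and 301 to 372 CPM with vehicle, a log2 difference of 0.12 (exact permutation test, two-sided, p = 0.500). It was 0.23 without TTX replicate 1 (exact permutation p = 0.0397) and -0.0028 without TTX replicate 5 (exact permutation p = 0.968). Without both it was 0.11 (exact permutation p = 0.196), so its size depended on which of these libraries was kept.

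**Figure D3:**
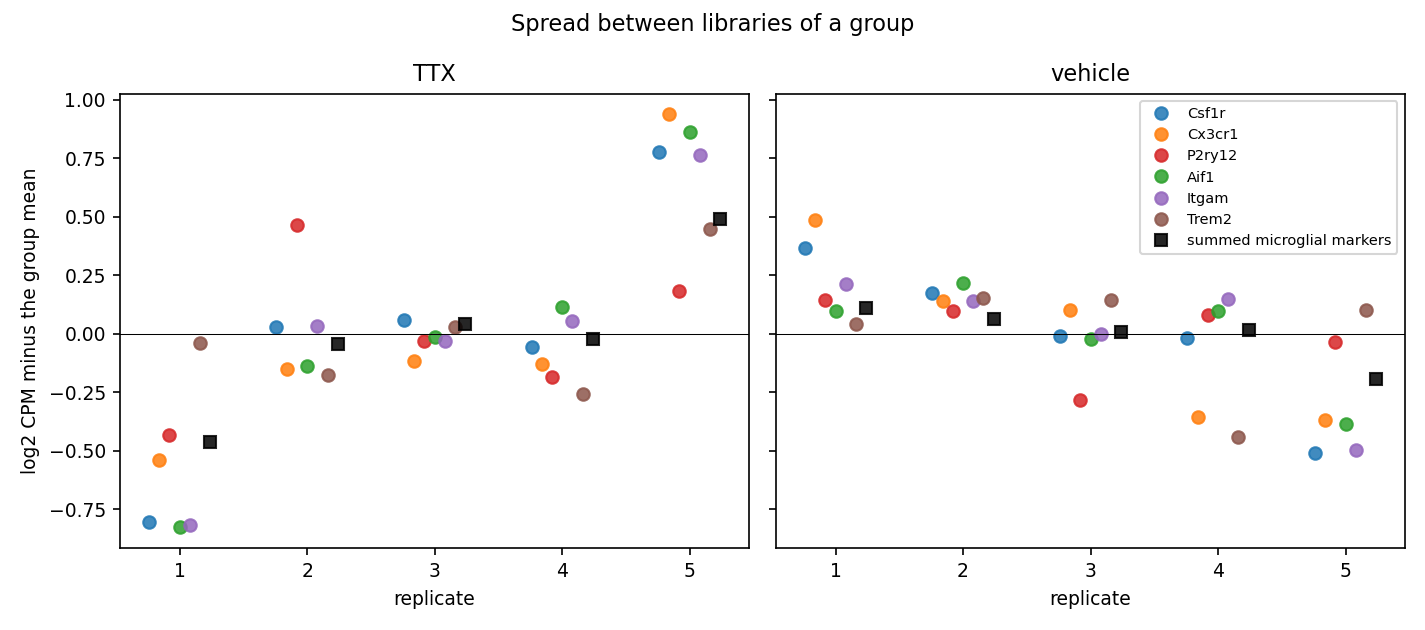
Deviation of each library's log2 CPM from its group mean (y axis) by replicate number (x axis, a name and not an order) for the 6 receptors and markers (circles) and for the summed microglial markers (black squares), TTX left and vehicle right. TTX replicate 5 lies above and TTX replicate 1 below the group mean for most genes, by up to 0.94 for Cx3cr1 in replicate 5, and the vehicle libraries spread less.

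The label of microglia was checked against defining markers. Aif1, Csf1r and the complement genes C1qa, C1qb and C1qc were well detected, with C1qb at 50.5 ± 18.8 FPKM with TTX and 37.8 ± 7.08 FPKM with vehicle. Markers of mature homeostatic microglia were low. Tmem119, the most selective of them, had 17 to 34 counts per TTX library and 18 to 26 per vehicle library (0.163 ± 0.0638 and 0.165 ± 0.0427 FPKM), and P2ry13, a neighbour of P2ry12 in sequence and role, had 6 to 15 counts per TTX library and 0 to 5 per vehicle library. Of 7 markers of border-associated macrophages, which line the meninges and vessels, all but Ms4a7 were higher per length than Tmem119 and P2ry12 in both groups, and Ms4a7 was lower than either, at 0.122 ± 0.108 FPKM with TTX and 0.0650 ± 0.0465 FPKM with vehicle. Mrc1 stood at 7.61 ± 2.26 FPKM with TTX and 4.29 ± 0.595 FPKM with vehicle, Lyve1 at 12.9 ± 4.43 FPKM with TTX and 8.81 ± 1.46 FPKM with vehicle. The 7 border markers in the table summed to 75.4 to 199 CPM with TTX and 72.1 to 105 CPM with vehicle, and of the 6 tested, Mrc1, Cd163 and Lyve1 were called higher (adjusted p = 0.000600, 0.0192 and 0.0245) and none lower, while Ms4a7 was the 1 at 0 in a library (vehicle replicate 1). The calls of Cd163 and Lyve1 were lost without TTX replicate 5, without vehicle replicate 5 and in limma-voom, and that of Lyve1 also without vehicle replicate 3. The 6 genes are therefore described as myeloid genes of the cultures, and how much of them each macrophage type supplied was not tested. Of 14 blood leukocyte markers 4 were in the table and their sum was 0.376 to 0.925 CPM with TTX and 0.866 to 1.42 CPM with vehicle.

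Csf1r, the receptor of both growth factors, had 16.6, 29.6, 30.2, 27.9 and 49.7 CPM in TTX replicates 1 to 5, against 28.3, 24.8, 21.8, 21.7 and 15.4 CPM in vehicle replicates 1 to 5. The groups overlapped, with TTX replicate 1 among the vehicle values and TTX replicate 5 above all. The log2 fold change of 0.46 ± 0.222 (SE, 95% interval -0.019 to 0.93) did not pass (adjusted p = 0.0793), but it did without TTX replicate 1, at 0.62 (adjusted p = 0.00741). Without TTX replicate 5 it was 0.22 (adjusted p = 0.283). Its closest patterns over the 10 libraries were those of C1qb, Lyve1 and Fcer1g, the last an adaptor of immune receptors, with root mean square differences of 0.0671, 0.0766 and 0.0877.

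Aif1, the cytoplasmic marker, had 4.91, 7.93, 8.63, 9.44 and 15.9 CPM in TTX replicates 1 to 5, against 7.27, 7.89, 6.69, 7.26 and 5.19 CPM in vehicle replicates 1 to 5. The values of 4 TTX libraries lay above all vehicle libraries and that of TTX replicate 1 below all of them. The log2 fold change of 0.44 ± 0.229 (SE, 95% interval -0.049 to 0.93) did not pass (adjusted p = 0.0982). Without TTX replicate 1 it was 0.61 and passed (adjusted p = 0.00939), and without TTX replicate 5 it was 0.17 (adjusted p = 0.380).

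Itgam had 3.18, 5.73, 5.49, 5.82 and 9.51 CPM in TTX replicates 1 to 5, against 4.33, 4.11, 3.73, 4.14 and 2.64 CPM in vehicle replicates 1 to 5. Again 4 TTX libraries lay above all vehicle libraries, while TTX replicate 1 lay among them. In the fit the log2 fold change was 0.65 ± 0.224 (SE, 95% interval 0.17 to 1.13, adjusted p = 0.0186). The call was lost without TTX replicate 5, at 0.42 (adjusted p = 0.0551), and in limma-voom, at 0.55 (adjusted p = 0.0626). Itgb2, which encodes the beta chain that pairs with ITGAM, had 3.94 ± 1.45 CPM with TTX and 3.01 ± 0.516 CPM with vehicle (SD, n = 5 each) and did not pass (log2 fold change 0.38, adjusted p = 0.150).

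P2ry12, the nucleotide receptor, had 1.33, 2.48, 1.76, 1.58 and 2.04 CPM in TTX replicates 1 to 5, against 0.593, 0.573, 0.440, 0.567 and 0.523 CPM in vehicle replicates 1 to 5. Every TTX library lay above every vehicle library, also TTX replicate 1, the lowest of the TTX libraries. These values rest on 94 to 161 counts per TTX library and 30 to 40 per vehicle library. Its log2 fold change was 1.77 ± 0.193 (SE, 95% interval 1.35 to 2.18, adjusted p = 1.22e-06), and leaving out any 1 library kept it between 1.63 and 1.87. Closest in pattern were Ky, a muscle protein gene, Nppc, the precursor of C-type natriuretic peptide, and Doc2b, a calcium sensor of vesicle release. Their root mean square differences were 0.200, 0.218 and 0.231, larger than those of the nearest genes to Csf1, Cx3cl1 or Csf1r. In total P2ry12 had 791 counts, against 43451 for Csf1, 300984 for Cx3cl1 and 17231 for Csf1r. Few counts limit precision, so these differences cannot tell whether the pattern of P2ry12 was less shared by other genes.

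Cx3cr1, the receptor of fractalkine, had 0.646, 0.847, 0.866, 0.858 and 1.80 CPM in TTX replicates 1 to 5, against 1.21, 0.949, 0.924, 0.674 and 0.667 CPM in vehicle replicates 1 to 5. The groups overlapped, and TTX replicate 5 alone stood above the vehicle libraries. TTX over vehicle gave a log2 fold change of 0.18 ± 0.275 (SE, 95% interval -0.41 to 0.77, adjusted p = 0.575), and -0.13 without TTX replicate 5 (adjusted p = 0.619). Cx3cr1 had 51 to 106 counts per TTX library and 44 to 63 per vehicle library. Its interval was wide and held changes in either direction, so no call does not mean no change.

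Trem2 had 2.00, 1.82, 2.096, 1.72 and 2.80 CPM in TTX replicates 1 to 5, against 1.97, 2.13, 2.11, 1.41 and 2.05 CPM in vehicle replicates 1 to 5. The values of the groups were mixed, with TTX replicate 5 the highest and vehicle replicate 4 the lowest. TTX over vehicle gave a log2 fold change of 0.11 ± 0.160 (SE, 95% interval -0.24 to 0.45, adjusted p = 0.570), and -0.018 without TTX replicate 5 (adjusted p = 0.923).

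**Figure D4:**
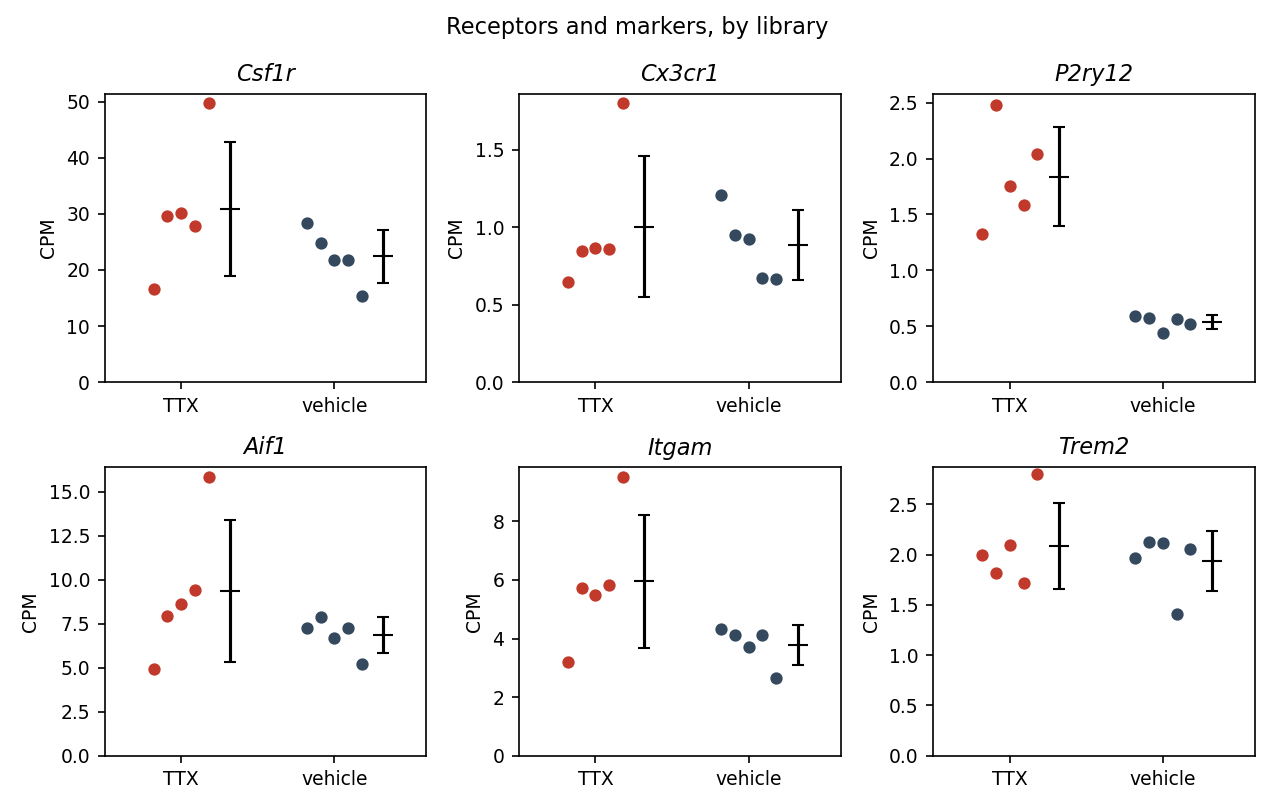
CPM of the 6 receptors and markers in each library (points), with the group mean and SD (bars), TTX left and vehicle right of each panel, y axes starting at 0. For P2ry12 the groups stand apart, and in the other panels they overlap, with TTX replicate 5 the highest point at 49.7 CPM for Csf1r and 1.80 CPM for Cx3cr1.

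To set each gene against the myeloid RNA of its own library, its CPM was divided by the summed CPM of the 26 microglial markers. P2ry12 amounted to 0.389 to 0.683% of that sum with TTX and 0.127 to 0.174% with vehicle, without overlap. The log2 difference was 1.62 (exact permutation test, two-sided, p = 0.00794, and 0.0476 after adjustment over the 6 ratios). Itgam amounted to 1.17 to 1.81% with TTX and 0.879 to 1.19% with vehicle, with a small overlap. Its log2 difference was 0.47 (exact permutation p = 0.0159, adjusted p = 0.0476), and the adjusted value was 0.0714 without any 1 of vehicle replicates 1, 2, 3 and 5, at differences of 0.49, 0.49, 0.47 and 0.39. Csf1r amounted to 6.11 to 9.48% with TTX and 5.13 to 7.62% with vehicle (exact permutation test, adjusted p = 0.175), and Aif1 to 1.81 to 3.02% with TTX and 1.73 to 2.20% with vehicle (exact permutation test, adjusted p = 0.190). Both passed without TTX replicate 1, at log2 differences of 0.37 and 0.33 (exact permutation test, adjusted p = 0.0357 each). Cx3cr1 was at 0.225 to 0.343% with TTX and 0.194 to 0.325% with vehicle, and Trem2 at 0.467 to 0.736% with TTX and 0.405 to 0.683% with vehicle (exact permutation test, adjusted p = 0.976 each). The sum is not neutral, since 8 of its 25 tested genes were called higher and 2 lower.

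**Figure D5:**
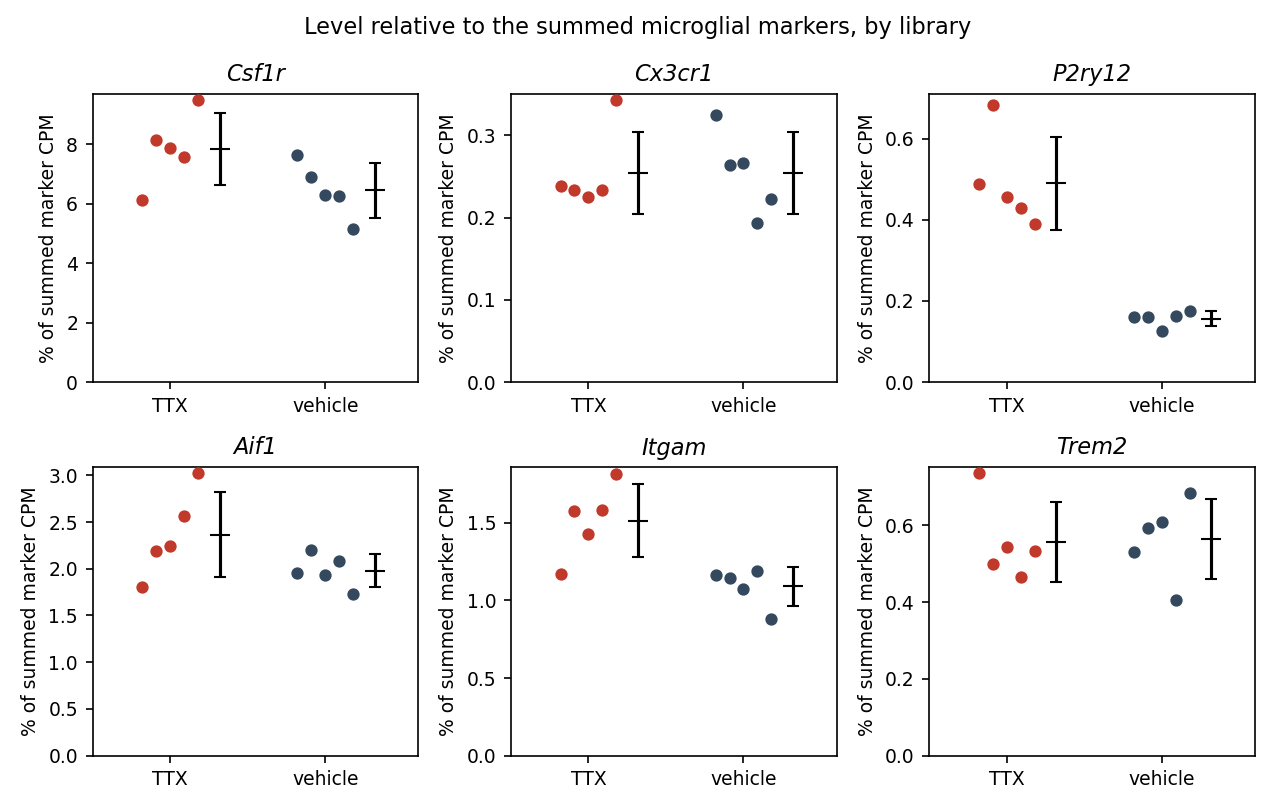
CPM of each of the 6 receptors and markers as a percentage of the summed CPM of 26 microglial markers in the same library (points), with the group mean and SD (bars), TTX left and vehicle right of each panel, y axes starting at 0. P2ry12 lies at 0.389 to 0.683% with TTX, above its 0.127 to 0.174% with vehicle, and the other 5 panels overlap.

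Around the ligands and receptor of the CSF1R axis, 3 of 14 further tested genes were called higher and 5 lower (median log2 fold change -0.18). Pik3r1, a regulatory subunit of PI3 kinase, was higher with TTX at 70.7 ± 3.13 CPM, against 46.5 ± 2.20 CPM with vehicle (SD, n = 5 each for this and the following genes). Sdc1, a proteoglycan to which IL-34 binds, was lower at 19.5 ± 4.33 CPM with TTX, against 39.5 ± 4.63 CPM with vehicle, and Runx1, a transcription factor of blood and myeloid cells, was lower at 1.68 ± 0.247 CPM with TTX, against 4.73 ± 0.683 CPM with vehicle. Spi1, which encodes PU.1 and is named here after its value was seen, was higher without overlap at 3.32 ± 0.842 CPM with TTX, against 1.86 ± 0.282 CPM with vehicle (log2 fold change 0.83 ± 0.171, adjusted p = 0.000538). For fractalkine, the shedding and signalling genes gave 5 of 9 higher and 2 lower (median 0.22). The rhomboid proteins that carry the sheddase ADAM17 rose, Rhbdf2 to 8.19 ± 1.04 CPM with TTX, against 2.39 ± 0.416 CPM with vehicle, and Rhbdf1 to 37.1 ± 1.24 CPM with TTX, against 27.3 ± 1.65 CPM with vehicle. Gnai1, a G protein subunit downstream of chemokine receptors, was lower at 168 ± 3.32 CPM with TTX, against 204 ± 7.98 CPM with vehicle.

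Of 15 tested chemokines and chemokine receptors other than Ccl2, Cx3cl1 and Cx3cr1, 7 were higher and 4 lower (median 0.66). Ccl7, a monocyte chemokine related to Ccl2, was lower like it, at 10.1 ± 1.87 CPM with TTX, against 33.9 ± 0.864 CPM with vehicle (log2 fold change -1.75 ± 0.0980, adjusted p = 8.56e-10). Cxcl12 was higher at 67.0 ± 3.63 CPM with TTX, against 33.6 ± 3.30 CPM with vehicle, and so was Ackr3, its scavenging receptor, at 34.0 ± 1.88 CPM with TTX, against 9.77 ± 1.16 CPM with vehicle. Of 16 tested purinergic genes beside P2ry12, 5 were higher and 8 lower (median -0.19). P2rx7, an ATP-gated channel, was higher at 4.91 ± 0.311 CPM with TTX, against 1.92 ± 0.514 CPM with vehicle, and the adenosine receptor Adora1 was higher at 167 ± 4.45 CPM with TTX, against 138 ± 6.52 CPM with vehicle. Nt5e, the ectoenzyme that makes adenosine from AMP, was lower at 4.59 ± 0.524 CPM with TTX, against 8.36 ± 0.543 CPM with vehicle. Over all tested genes 35.4% were higher and 35.0% lower, and whether the purinergic list departed from these shares was not tested.

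Among 14 tested genes of the TREM2 axis, 9 were higher and 3 lower (median 0.18), while Trem2 itself and its adaptor Tyrobp (log2 fold change 0.26, adjusted p = 0.297) did not pass. Gpnmb and Spp1, a membrane glycoprotein and a matrix protein that activated microglia express, were higher at 447 ± 28.7 and 539 ± 46.8 CPM with TTX, against 184 ± 8.80 and 303 ± 8.73 CPM with vehicle, and Grn, which encodes progranulin, at 222 ± 10.6 CPM with TTX, against 165 ± 8.70 CPM with vehicle. Their CPM exceeded that of Trem2 many times over, and other cell types also express them. Of 16 tested complement genes around receptor 3, 7 were higher and 2 lower (median 0.39). There were 12 higher without TTX replicate 1 and 7 higher without TTX replicate 5. C4a was higher at 29.7 ± 1.58 CPM with TTX, against 16.2 ± 2.26 CPM with vehicle, Cfi, a protease that inactivates C3b and C4b, at 4.18 ± 0.297 CPM with TTX, against 1.93 ± 0.297 CPM with vehicle, and Sez6, a neuronal complement regulator, at 309 ± 12.2 CPM with TTX, against 221 ± 9.37 CPM with vehicle. Of 10 genes of the inhibitory contacts between neurons and microglia, 4 were higher and 4 lower (median -0.032). Cd200 and Cd47, both displayed by neurons, were lower at 110.0 ± 2.18 and 119.7 ± 2.33 CPM with TTX, against 149 ± 7.47 and 147 ± 4.55 CPM with vehicle, and Nrros, a microglial carrier of latent TGF-beta, was higher at 8.08 ± 0.642 CPM with TTX, against 5.26 ± 0.361 CPM with vehicle. Read against the 70.5% called over all tested genes, these lists held 56.3 to 85.7% called genes.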

How the data were processed

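RNA was sequenced for 5 TTX and 5 vehicle libraries (RNA integrity number above 9, per the labels' protocols). Per the submitters' processing notes the build was rn6 and the tools included DESeq2, StringTie and HISAT2 2.1.0. The sources used here name neither the read counter nor its strand setting, which leaves overlapping and antisense genes uncertain. The authors deposited whole-number counts per gene and library, used here as deposited. The same table holds FPKM, per the file headers, used for levels between genes. The authors' deposited log2 fold changes and p-values gave the same call for all 10 genes at 0.05, and were otherwise not used. The table's 14608 lines held 241 repeated names. Identical repeats were collapsed, which removed 254 lines. Of counts from 1 to 20, 57.0% are even, and read pairs may therefore count double.

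Counts were fitted in R 4.3.3 with edgeR 4.0.16 (TMM, filterByExpr at 10 counts per library and 15 in total, quasi-likelihood F test, two-sided, Benjamini-Hochberg adjusted p under 0.05 over 13088 genes). The 95% intervals use the moderated degrees of freedom. The biological coefficient of variation was 7.59%. Ratios within a library were compared by exact permutation of the libraries. The fit was tested on simulated data first. No 2 libraries of a group agreed within sampling noise. Alternatives were other scalings and filters, DESeq2 1.42.0, limma-voom (limma 3.58.1), leaving out each library and a replicate block. Others were chosen after seeing the data: leaving out TTX replicates 1 and 5 together and thinning counts to 50%. Some results, 1 alternative marker sum included, are not reported here.

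The 10 genes and all gene lists were chosen with earlier results of these data known. Named genes are the 10, Npas4, for each list its 3 best-ranked other genes by p, and the 3 genes closest in pattern to Csf1, Cx3cl1, P2ry12 and Csf1r (mean of at least 1 CPM). Spi1, Itgb2, Tyrobp, Tmem119, P2ry13 and Gpr34 are outside this rule and were named after their values were seen. Promoter sequences are RefSeq's (GRCr8), a build other than the authors', so no position of a read is implied.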

Additional observations from a re-analysis of the deposited data

Results flagged for a closer look

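Of 42 sets of 5 libraries checked for 1 library far from the rest, 4 held one, and chance gives about 1 in 20. Il34 was 18.7 CPM in TTX replicate 5, against 15.2 to 15.7 CPM in the other TTX libraries. Cx3cr1 was 1.80 CPM in TTX replicate 5, against 0.646 to 0.866 CPM in the others, and it was also apart there as a share of the summed microglial markers, at 0.343%, against 0.225 to 0.238%. Trem2 was 1.41 CPM in vehicle replicate 4, against 1.97 to 2.13 CPM in the other vehicle libraries. TTX replicate 5 also lay apart on the second principal component of all genes, at -25.8 against 1.64 to 10.9 for the other TTX libraries. Its part in these values was not tested.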

How the results depend on the processing

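Over all alternatives, the counts of 4 higher and 2 lower genes stayed within 1.5 times (3 to 6 and 2 when 1 library was left out), and Csf1, Il34, Cx3cl1, P2ry12 and Ccl2 kept direction and call. Itgam fell short in limma-voom (0.55, adjusted p = 0.0626) and with the replicate block (0.59, adjusted p = 0.0578). Leaving out 1 library gave log2 fold changes of 0.42 to 0.81 for Itgam, 0.22 to 0.62 for Csf1r, 0.17 to 0.61 for Aif1, -0.13 to 0.31 for Cx3cr1 and -0.018 to 0.17 for Trem2. Without TTX replicates 1 and 5 together, Csf1r (0.39, adjusted p = 0.0254) and Aif1 (0.34, adjusted p = 0.0252) passed, and Cx3cr1 (-0.034) and Trem2 (-0.042) turned sign.

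Per summed microglial marker, leaving out 1 library gave log2 differences of 0.20 to 0.37 for Csf1r, -0.11 to 0.10 for Cx3cr1, 0.15 to 0.33 for Aif1, 0.39 to 0.56 for Itgam, -0.13 to 0.057 for Trem2 and -0.0028 to 0.23 for the sum itself. With a mean of log2 values in place of the sum, Itgam was 0.31 (exact test, adjusted p = 0.0714) and Cx3cr1 -0.15. Cx3cr1 was also below 0 in FPKM (-0.033) and without TTX replicates 1 and 5 (-0.12). Without TTX replicates 1 and 5, P2ry12 (1.72) and Itgam (0.50) gave adjusted p = 0.0536 by exact permutation, where 3 libraries against 5 allow no p under 0.0179.

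Samples with the same replicate number did not deviate together (correlations of -0.058 to 0.011), so the block pairs numbers only. Under it an exact sign-flip test of 5 differences allows no p under 0.0625. This was the adjusted p of Csf1 over Il34 (0.47), Cx3cl1 over neuronal markers (-1.07), and Csf1 (0.45) and Ccl2 (-2.03) over astrocyte markers, and it was 0.188 for P2ry12 (1.62) and Itgam (0.47) over microglial markers. The calls of Cd163 and Lyve1 were also lost under the block. Cx3cr1 has no value under the filter of 1 CPM in 5 libraries. Cx3cr1 and P2ry12 rest on few counts per library (44 to 106 and 30 to 161), which limits their precision. Why these values moved was not tested.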

Other observations

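The marker lists of oligodendrocytes, vessels with meninges, and neurons held 58.3 to 75.0% called genes, against 70.5% over all tested genes. Of 12 oligodendrocyte lineage markers, 8 were higher and 1 lower with TTX (75.0% called, median log2 fold change 0.44), among them Olig1, a transcription factor of the lineage, at 376 ± 12.8 CPM with TTX, against 173 ± 14.4 CPM with vehicle, and Gpr17, a receptor of differentiating precursors, at 156 ± 14.9 CPM with TTX, against 64.0 ± 8.93 CPM with vehicle (SD, n = 5 each). Of 9 tested vascular and meningeal markers, 1 was higher and 5 lower (66.7% called, median -0.62), among them the fibroblast matrix genes Dcn, at 6.17 ± 0.484 CPM with TTX, against 16.8 ± 1.49 CPM with vehicle, and Lum, at 7.25 ± 0.572 CPM with TTX, against 16.8 ± 0.964 CPM with vehicle. Of 12 neuronal markers, 5 were higher and 2 lower (58.3% called, median 0.091). Syn1, a synaptic vesicle protein, stood at 517 ± 14.1 CPM with TTX, against 441 ± 13.5 CPM with vehicle, while Dcx, a protein of young neurons, stood at 155 ± 3.86 CPM with TTX, against 83.2 ± 3.11 CPM with vehicle. Dcx was the exception, at a log2 fold change of 0.90, and the other 11 lay between -0.20 and 0.26.

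Of 25 tested microglial markers, 8 were higher and 2 lower (40.0% called, median 0.38). There were 18 higher and 2 lower without TTX replicate 1, and 6 higher and 3 lower without TTX replicate 5. In limma-voom and with the replicate block there were 6 higher and 2 lower. Gpr34, a receptor of microglia named here after its value was seen, was higher like P2ry12, at 1.69 ± 0.585 CPM with TTX, against 0.704 ± 0.156 CPM with vehicle (edgeR's quasi-likelihood test, log2 fold change 1.27, adjusted p = 0.000419), with overlap between the groups.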
